A study of Macaca mulatta with 64 samples.

Results

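Genes for neurotransmitter receptors were examined in the brain of rhesus macaques by CAGE-seq, which counts the 5′ ends of capped RNA. The genes were taken by the first letters of their Ensembl macaque symbols, with GRIA1 left out by name. The rule holds no measured value, but it was chosen with earlier results of these data known. It covered the AMPA (GRIA), kainate (GRIK) and NMDA (GRIN) receptor subunits, the metabotropic glutamate receptors (GRM), the GABA-A (GABR) and GABA-B (GABBR) receptor subunits, the glycine receptor subunits (GLRA, GLRB), the muscarinic (CHRM) and nicotinic (CHRN) acetylcholine receptors, and the serotonin (HTR), dopamine (DRD) and adrenergic (ADRA, ADRB) receptors. Of 101 such symbols, 59 had a transcript cluster (TC, a group of neighboring 5′ ends of reads assigned to a gene) in at least 1 library, among 13269 genes with a TC in all, and 42 had none. Only 10069 of the 13269 genes carried a symbol, so a receptor gene without one would be missed. A symbol without a TC is therefore not shown to be unexpressed.

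Glutamate opens AMPA, kainate and NMDA receptors, which are cation channels that carry fast excitation, while the metabotropic glutamate receptors act through G proteins. GABA-A and glycine receptors are chloride channels that carry fast inhibition, and GABA-B receptors act through G proteins. Acetylcholine acts on nicotinic channels and muscarinic G protein-coupled receptors, and dopamine, noradrenaline and most serotonin receptors are G protein-coupled and tune the activity of neurons more slowly.

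The 64 libraries came from the cerebellar cortex (CB), from CA1 and the dentate gyrus (DG) of the hippocampus, and from 5 neocortical regions, namely the prefrontal (PFC), posterior cingulate (PCC), temporal, parietal (PC) and occipital (OC) cortices. The animals were untreated female and male rhesus macaques aged 1, 4, 10 and 20 yr, and every age and sex (an animal group) gave 1 library per region, or 8 per region. The supplemental methods state that the study took all 8 regions from each specimen, with 2 monkeys per age and sex. The study made each RNA-seq library from a pair matched for age and sex and used the same 64 samples for CAGE-seq, so a library is taken to stand for a pair rather than for 1 monkey. The p-values of regional comparisons rest on the spread left between libraries after region and animal group, pooled over all regions. Those for age and sex rest on the spread left between the 8 animal-group means after terms for the 4 ages and for sex. This leaves few degrees of freedom, and the spread is how far the sex difference varies between ages. Differences between 10 and 20 yr, or between 1 and 4 yr, do not enter it.

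Values were tags per 1000000 mapped tags (TPM), summed over the TCs of a gene. They have no length correction, so where genes are ranked by mean TPM the order is one of tags, not of expression per length. The lowest value above 0 was 1 TPM, so a gene listed at 0 may have been expressed below that. Estimated from the step between low values, libraries held 1.51e+06 to 6.09e+06 tags (median 3.78e+06). They listed 545 to 8143 genes (median 2517.5). The CB library of 10-yr-old females listed the fewest genes and the CA1 library of 20-yr-old females the most. All libraries labelled CB stood apart by their markers: the summed TPM of 16 granule and Purkinje cell markers was 1104 to 3983 in CB, against 0 to 771 in the other libraries, and CBLN3, a granule cell gene, differed by 9.02 on the log2(TPM + 1) scale (limma, adjusted p = 1.91e-33). The oligodendrocyte genes MAG, OPALIN, CLDN11, ERMN and SOX10 had no TC under these symbols in any library, which does not show that they were unexpressed.

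Receptor genes were listed in few libraries each. The median member had a TC in 5 of 64 libraries, against 6 for all genes, and 10 members (16.9%) were seen in a single library, against 16.5% of all genes. No member was listed in all libraries, while 54 genes of the whole table were. The members listed in at least 32 libraries were GRIA3 (51), GRIN1 (41), GABBR1 (40), GABRA2 (35) and GRIA2 (34), which is 8.47% of the members against 13.9% of all genes. GRIA2 and GRIA3 encode AMPA receptor subunits, GRIN1 the obligatory NMDA receptor subunit, GABBR1 the GABA-binding subunit of the GABA-B receptor, and GABRA2 a GABA-A receptor alpha subunit. Signal was also uneven within a gene, as 32 of the 59 members had over 50% of their summed TPM in 1 library.

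**Figure D1:**
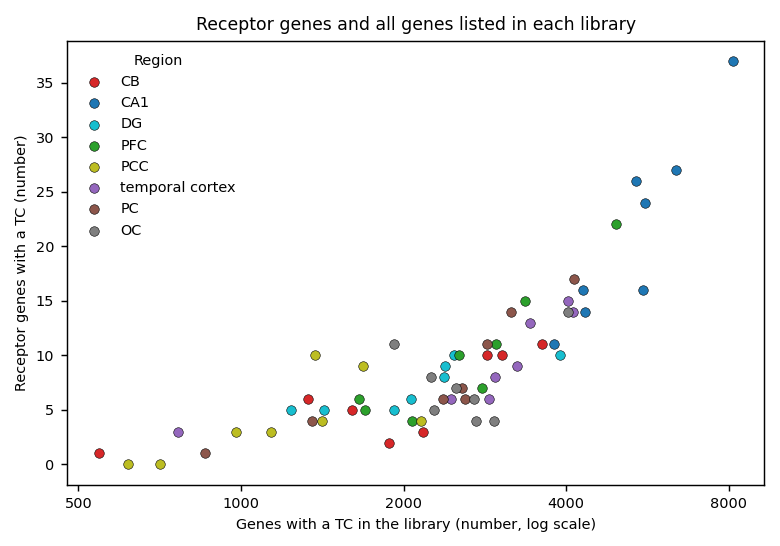
Number of receptor genes with a TC (vertical axis) against the number of all genes with a TC (horizontal axis, log scale) in each of the 64 libraries, 1 point per library, marked by region. The count runs from 0 members in PCC libraries of 10- and 20-yr-old females to 37 in the CA1 library of 20-yr-old females, and libraries that listed more genes listed more members.

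The number of members in a library followed the number of genes it listed, with a Pearson's r of 0.808 and a Spearman's rho of 0.854 between members and log2 genes over the 64 libraries, which share animals and regions. Members per library had a median of 20 in CA1 (range 11 to 37) and 7 in DG (5 to 10). The median was 5.5 in CB (1 to 11), 8.5 in PFC (4 to 22), 3.5 in PCC (0 to 10), 8.5 in temporal cortex (3 to 15), 6.5 in PC (1 to 17) and 6.5 in OC (4 to 14). CA1 libraries also listed the most genes (median 5473.5) and PCC libraries the fewest (median 1253.5). Over its 8 libraries, CA1 listed 49 of the 59 members at least once, against 17 (PCC) to 32 (PFC) in the other regions. These are 83.1% of the members in CA1, 28.8% in PCC and 54.2% in PFC, and the same regions listed 85.7, 31.3 and 55.2% of all genes. Members made up a median of 0.309% of the genes listed and 0.0915% of the listed TPM of a library.

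Among ionotropic glutamate receptors, all 3 AMPA subunits taken had TCs and at least 1 of them was listed in 54 libraries. GRIA3 (X, positions 121384420 to 121702090 on the + strand of MMUL 1.0) was listed in all 8 CA1 libraries, with a lowest, median and highest value of 14.9, 56.7 and 145 TPM. It was listed in all 8 PFC libraries (4.30, 56.1 and 259 TPM) and in 7 of 8 DG libraries (0, 104 and 369 TPM). In CB 3 of 8 libraries listed it (160, 4.53 and 29.0 TPM). The levels of GRIA3 in these regions overlap, except that 5 CB libraries at 0 lie below every CA1 and PFC library. GRIA2 (chromosome 5, 149441272 to 149591051, +), the subunit that sets the calcium permeability of AMPA receptors, was listed in 7 of 8 CA1 libraries (lowest 0, median 27.7, highest 410 TPM) and in 4 or 5 of 8 libraries of DG and of each neocortical region, where the highest value was 765 TPM in PFC. It was listed at 0 in all 8 CB libraries. All 5 kainate subunits had TCs, in 38 libraries together, and GRIK5 (chromosome 19, 48307631 to 48379896, −), a subunit that forms channels only with other kainate subunits, led them with a mean of 13.1 TPM over all libraries.

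NMDA subunits were listed in 47 libraries, with 6 of 7 genes seen and no TC under the symbol GRIN3B. GRIN1 (chromosome 15, 1076939 to 1138887, −) was listed in 7 of 8 CA1 libraries (0, 15.0 and 53.1 TPM for the lowest, median and highest), 7 of 8 PFC libraries (0, 58.5 and 284 TPM) and 6 of 8 OC libraries (0, 100 and 301 TPM), and in 3 of 8 libraries each of PCC and temporal cortex. The ranges of all 8 regions overlap. GRIN2C (chromosome 16, 70116871 to 70129539, −), known from rodents as the NMDA subunit of cerebellar granule cells, was listed in 4 of 8 CB libraries, at 150, 124, 20.2 and 840 TPM. Outside CB, 2 of 56 libraries listed it, at 53.8 TPM (PFC) and 69.2 TPM (PC). Metabotropic glutamate receptors had TCs of 7 of 8 genes in 31 libraries, with no TC under the symbol of GRM6, a receptor of the retina. GRM3 (chromosome 3, 130400561 to 130623515, −), a Gi-coupled receptor of neurons and astrocytes, led them. It was listed in 7 of 8 CA1 libraries (0, 25.2 and 54.1 TPM), in 1 of 8 DG libraries (50.9 TPM), in 10 of 40 neocortical libraries and in no CB library.

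**Figure D2:**
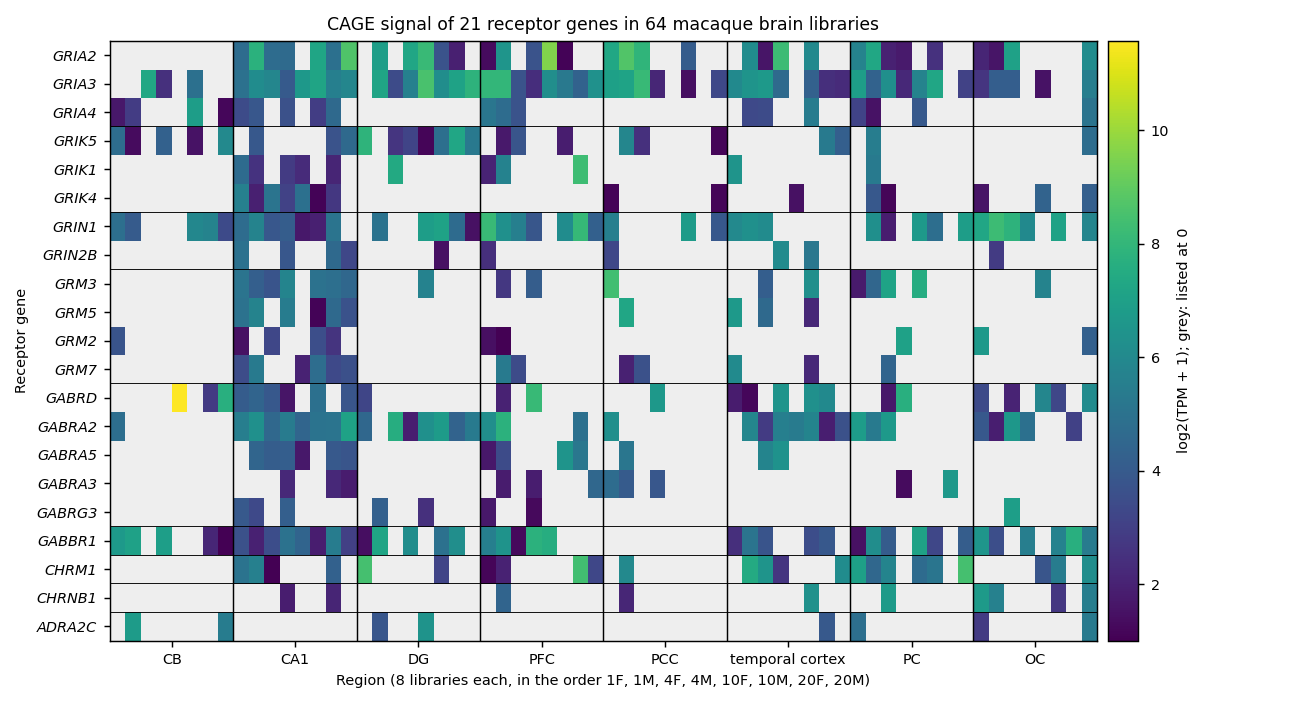
Heatmap of log2(TPM + 1) of 21 of the receptor genes that reached 1 TPM in 8 libraries or more (rows, by receptor class) in the 64 libraries (columns, by region and then by age and sex). Grey cells are libraries in which the gene was listed at 0, and GRIA2, CHRM1 and GRM3 are grey in all 8 CB columns and GABBR1 in all 8 PCC columns.

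GABA-A subunits held 33.2% of all member TPM, and 11 of 19 genes had TCs, in 55 libraries together. GABRD (chromosome 1, 5065407 to 5071284, +), the delta subunit of extrasynaptic receptors, had the highest mean among members, 67.9 TPM, but 70.5% of its TPM came from 1 library: it was listed at 3063 TPM in the CB library of 10-yr-old females, where it was the only member with a TC. The other CB libraries were at 6.02, 203 and 0 TPM, the last in 5 libraries. GABRA2 (chromosome 5, 41431678 to 41578130, −) was listed in all 8 CA1 libraries (20.8, 37.3 and 136 TPM), 7 of 8 DG libraries (0, 30.9 and 191 TPM), 7 of 8 temporal cortex libraries (0, 26.1 and 57.2 TPM) and 1 of 8 CB libraries (27.4 TPM). Both GABA-B subunits had TCs, and GABBR1 (chromosome 4, 29289676 to 29369271, −) was listed in all 8 CA1 libraries (2.63, 10.9 and 42.9 TPM) and in 5 or 6 of 8 libraries of every other region except PCC, where all 8 were at 0. The PCC libraries also listed the fewest genes, as given above.

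Receptors for glycine, acetylcholine and monoamines were sparse. All 5 glycine receptor subunits had TCs, in 8 libraries together, led by GLRB, the beta subunit that anchors the receptor to gephyrin, at 110 TPM in the DG library of 20-yr-old females and at 4.93, 3.0 and 13.2 TPM in CB, CA1 and OC libraries. Of 5 muscarinic receptors only CHRM1 (chromosome 14, 11164202 to 11177334, +), a Gq-coupled receptor of forebrain pyramidal neurons, had a TC, in 24 libraries. CHRM1 was listed in 6 of 8 PC libraries (0, 29.7 and 356 TPM) and in no CB library. Nicotinic subunits had TCs of 8 of 16 genes in 21 libraries, and the highest mean was that of CHRNB1, known as a subunit of the receptor of muscle, with 107 TPM in an OC library and 109 TPM in a PC library. Serotonin receptors had TCs of 6 of 17 genes in 14 libraries. HTR5A, a Gi-coupled receptor, had 234 and 156 TPM in the CB libraries of 1-yr-old females and males, was at 0 in the other 6 CB libraries, and was listed in 3 of the 56 others at 1.64, 3.62 and 31.98 TPM. DRD1, the Gs-coupled D1 receptor, was the only dopamine receptor with a TC, at 2.29 TPM in a CA1 and 4.67 TPM in a temporal cortex library. Of 9 adrenergic receptors 4 had TCs, in 13 libraries. ADRA2C, a Gi-coupled receptor for noradrenaline, had the highest mean of them, with 110 and 42.6 TPM in CB libraries of 1- and 20-yr-old males, 85.2 and 13.4 TPM in DG, and 39.3 TPM as the highest of the 4 neocortical libraries that listed it.

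The TCs of receptor genes lay further from the annotated gene start than those of other genes. Of the TCs of members, 18.3% lay within 500 nt of the start, against 35.8% of all TCs. Of the TPM of members, 34.6% came from TCs within 500 nt of the start, against 53.7% for all genes, and 30.1% from TCs in the last 10% of the gene span, against 12.2%. The shares of TPM lean on single libraries. In the last 10% of its span GABRD had 1 TC, nearly all from 1 library, with 70.6% of its TPM. The mean of GABRD was 67.9 TPM, out of 562 TPM for all members. No TPM within 500 nt of the start was seen for 36 of 59 members (61.0%), against 36.9% of all genes. The members were long, with a median span of 91048 nt, against 23475 nt for all genes, and had a median of 6 TCs per gene, as all genes had. Only 107 of the 687 member TCs (15.6%) recurred in a second library, against 25.7% of all TCs. These shares are a description. Starts are those given with the deposited values and were not checked against another annotation, and whether tags away from a start mark capped RNA was not tested.

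The position of the TPM differed between members. GRIA2 and GRIA3 had 92.2 and 94.1% of their TPM within 500 nt of the start. GRIA2 had its most recurrent TC 29 nt upstream of the start, in 9 libraries of 6 regions. GRM3 and GABRG3, a GABA-A gamma subunit named here after its values were seen, had 71.7 and 73.6% near the start. The largest TC of GABRG3 held 64.4% of its TPM and was listed in 1 library only, and that of GRM3 held 31.5% and was listed in 2. In contrast, 14 of the 24 members that passed the filter (8 or more libraries at 1 TPM or above) had none within 500 nt. The main TC of GABRD, with 70.6% of its TPM, lay 5606 nt into a gene of 5878 nt, at 95.4% of the span, and was listed in 2 libraries, of which 1 held nearly all of it. CHRM1 had 41.2% of its TPM in a TC 12532 nt into 13133 nt, listed in 5 libraries. GRIN1 had its main TC 49911 nt into 61949 nt, with 20.4% of its TPM, and this TC was listed in 9 libraries of 7 regions. The largest TC of GRIK5, 66993 nt into 72266 nt, held 28.1% of its TPM but was listed in 1 library only. The main TC of GABRA2 lay 1350 nt downstream of the start (36.7%) and was listed in 11 libraries of 6 regions.

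**Figure D3:**
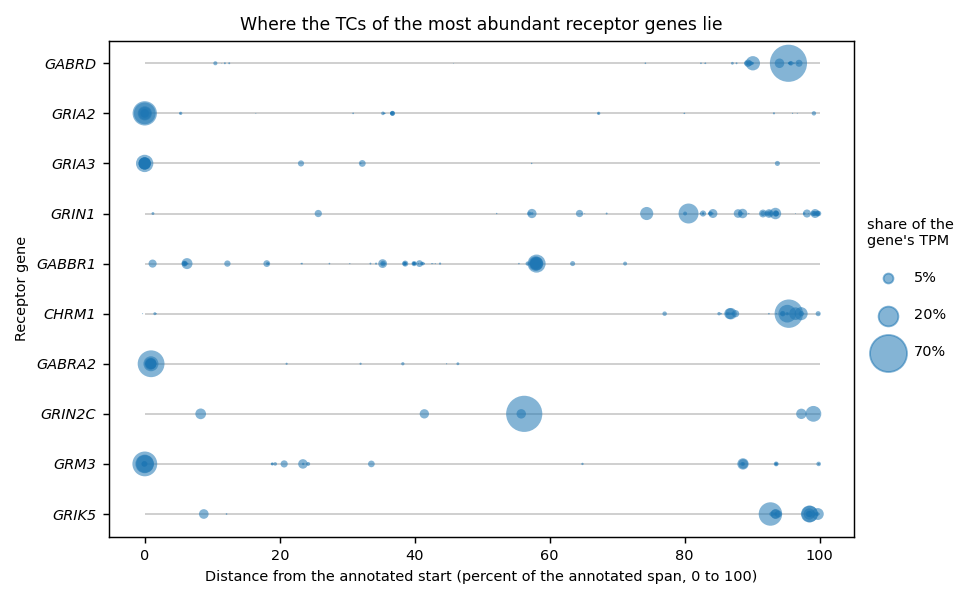
Position of the TCs of 10 receptor genes of high mean TPM along the gene (horizontal axis, percent of the annotated span from start to end), 1 row per gene, with the area of each point showing its share of the gene's TPM over all libraries. The TPM of GRIA2 and GRIA3 sits at the start, while the largest TC of GABRD and of CHRM1 lies at 95.4% of the span.

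CB was first compared with the other 7 regions, in a limma model on log2(TPM + 1) of all 64 libraries with region and animal group as terms. Of the 6106 genes tested, 2.23% were called (a Benjamini-Hochberg adjusted p below 0.05), and none of the 24 members that passed the filter. Before adjustment 4 members had a p under 0.05, all lower in CB, against 8.16% of all genes that were lower at that level. The median member was at −0.73 and the median gene at −0.43. The lowest p belonged to GRIA3, listed in 3 of 8 CB libraries, against 48 of 56 others with a median of 33.6 TPM, at a log2 difference of −2.67 ± 0.87 (SE; limma adjusted p = 0.0986). Without the animal group of 4-yr-old females, whose CB library held the highest GRIA3 value in that region, GRIA3 passed (adjusted p = 0.0363, within 0.0292 to 0.364 over all alternatives tried). GRIA2 was at 0 in all CB libraries, against 34 of 56 others that listed it, at −3.20 ± 1.08 (adjusted p = 0.115). GABRA2 was listed in 1 of 8 CB libraries, against 34 of 56, at −2.54 ± 0.89 (adjusted p = 0.140). CHRM1 was listed in none, against 24 of 56, at −2.18 ± 0.97 (adjusted p = 0.312). CB libraries listed 545 to 3615 genes (median 2028.5).

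The members listed mostly in CB did not reach the 8 libraries that the filter asks for. Without that filter, 3 of 59 members were called in CB, all higher, against 0.626% of 13269 genes higher in CB. They were GRIN2C with a log2 difference of 3.33 ± 0.65 (limma adjusted p = 0.00129), GRM4, a presynaptic Gi-coupled glutamate receptor, with 1.95 ± 0.51 (adjusted p = 0.0379), and GABRA6, the alpha subunit known from granule cells, with 1.46 ± 0.38 (adjusted p = 0.0379). GRM4 was at 68.8, 2.18 and 433 TPM in 3 CB libraries and 0 in 5, against 11.3 and 8.21 TPM in 2 of 56 others. GABRA6 was at 42.1, 1.70 and 40.7 TPM in 3 CB libraries and 0 in 5, against 15.8 TPM in 1 of 56 others. GRM4 and GABRA6 were at 0 in 5 and GRIN2C in 4 of the 8 CB libraries, so the groups overlap, and the size of the difference depends on the pseudocount of 1 TPM. The model pools 1 spread over all 64 libraries, and most of those outside CB were at 0. In TPM the SD was 288 in CB and 11.6 outside it for GRIN2C, 151 and 1.85 for GRM4, and 19.0 and 2.11 for GABRA6. The SEs therefore understate the spread within CB, and the adjusted p-values of these genes overstate the evidence. GABRD had a log2 difference of 1.07 ± 1.02 in CB (adjusted p = 0.621), which was −0.31 without the CB library of 10-yr-old females.

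The hippocampus (CA1 and DG) was compared with the neocortex in the same model. Of the 6106 genes, 8.19% were called, 7.98% higher in the hippocampus, and of the 24 members 3 (12.5%), all higher. The median log2 difference was 0.66 for members and 0.55 for all genes. GABRA2 was listed in 15 of 16 hippocampal libraries (median 36.3 TPM), against 19 of 40 neocortical ones (median 0, highest 225 TPM). It was higher by 2.63 ± 0.70 (limma adjusted p = 0.0118). GRIK5 was listed in 10 of 16 (median 6.58 TPM), against 10 of 40 (median 0, highest 57.5 TPM), and was higher by 1.86 ± 0.60 (adjusted p = 0.0402). Within the hippocampus 7 of 8 DG libraries listed GRIK5, against 3 of 8 CA1 libraries (medians 18.2 and 0 TPM). It was called in 8 of 19 alternatives (limma adjusted p of 0.00931 to 0.356) and lost in 6 of the 8 that left out an animal group. For both genes the ranges overlap. GRIA3, listed in 15 of 16 hippocampal and 33 of 40 neocortical libraries, was not called.

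Hippocampal libraries listed more genes (median 3851.5, range 1238 to 8143) than neocortical ones (median 2517.5, 617 to 4942), and with the log2 number of genes as a covariate none of the 24 members was called, although GABRA2 still differed by 2.14 (adjusted p = 0.157). None was called without the PCC libraries either, where GABRA2 had 2.23 (adjusted p = 0.0781, within 0.00111 to 0.157 over its alternatives). Leaving out an animal group left 0 members without 10-yr-old females or without 10-yr-old males, 1 without 4-yr-old males, 20-yr-old females or 20-yr-old males, 3 or 4 without 1-yr-old females or males, and 5 without 4-yr-old females. Without the CA1 library of 20-yr-old females alone, 1 was called, GABRA2. Of the glial marker lists, those of astrocytes and of oligodendrocytes and myelin had a higher median summed TPM in the hippocampus. That of microglia had a lower one (122.59, against 216.27 in the neocortex). The summed TPM of the 10 astrocyte markers, of which 8 had a TC, was 328 to 1557 in the hippocampus and 0 to 766 in the neocortex. For the 13 oligodendrocyte and myelin markers, of which 8 had a TC, it was 736 to 8204 in the hippocampus, against 49.2 to 7569 in the neocortex. For the 11 microglia markers, of which 5 had a TC, it was 6.91 to 367 in the hippocampus, against 0 to 868 in the neocortex. The part of any of these lists in the receptor differences was not tested. In bulk tissue fewer cells of a type and less RNA per cell cannot be told apart.

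CA1 was compared with DG within the hippocampus. CA1 libraries listed 11 to 37 receptor genes each, against 5 to 10 in DG libraries, and members were 0.288 to 0.483% of the genes listed in CA1 libraries and 0.257 to 0.404% in DG libraries, which overlap. In all 8 DG libraries 9 of the 24 members tested were at 0 (37.5%), against 18.8% of all genes tested. Of the 6106 genes, 19.4% were called, 18.5% higher in CA1, and of the members 7 (29.2%), all higher. The median was 1.13 for members and 1.37 for all genes, so the typical member did not differ more than the typical gene. Of the 7, 4 reached the 8 libraries of the filter only with the help of CA1, where they are high, GRM5 having 4 and GRM7 and GABRA5 7 libraries outside CA1. Of the 24 members tested 8 entered in this way, against 22.6% of all genes tested, and 4 of these 8 were called. Such entry favours genes that are high in CA1, so the count of 7 is given as a description.

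Metabotropic glutamate receptors made up 3 of the 7. Of these GRM5 and GRM7 entered only with the help of CA1, so their p-values below are no independent support. GRM5 (chromosome 14, 86696777 to 87252334, −), a Gq-coupled postsynaptic receptor, had 30.7, 53.1, 0, 42.8, 0, 1.13, 23.3 and 11.8 TPM in CA1 libraries and 0 in all DG libraries. It was higher by 3.20 ± 0.80 (limma adjusted p = 0.0041). GRM7 (chromosome 2, 53264086 to 54123531, −), a presynaptic Gi-coupled receptor, had 10.0, 40.3, 0, 0, 3.09, 26.7, 9.17 and 11.2 TPM in CA1 and 0 in all DG libraries, and was higher by 2.82 ± 0.76 (adjusted p = 0.00726). Both were listed in 6 of 8 CA1 libraries. GRM3 was listed in 7 of 8 CA1 libraries, against 1 of 8 in DG, and was higher by 3.44 ± 1.12 (adjusted p = 0.0265).

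The kainate subunit GRIK4 (chromosome 14, 119071113 to 119399992, +), which needs a partner such as GRIK2 to form a channel, had the lowest p of the members. It had 47.3, 2.79, 32.7, 7.42, 29.1, 1.13, 5.64 and 0 TPM in CA1 libraries and 0 in all DG libraries, a difference of 3.05 ± 0.63 (limma adjusted p = 0.000537). The model pools 1 spread over all 64 libraries, and most of those outside CA1 were at 0. In TPM the SD of GRIK4 was 17.963 in CA1, 0 in DG and 4.55 in the neocortex. Its SE therefore understates the spread within CA1, and its adjusted p overstates the evidence. The p-values of GRM5, GRM7 and GABRA5 rest on the same pooling. GRIK4 had just the 8 libraries of the filter outside CA1, at 1.15, 1.23, 1.79, 14.12, 1.21, 1.95, 19.59 and 17.27 TPM. With a pseudocount of 0.25 TPM in place of 1 the difference of GRIK4 was 4.63, so its size is set by the pseudocount and is no fold change. GRIK5 lay the other way. It had 0, 14.0, 0, 0, 0, 0, 12.2 and 23.3 TPM in CA1, against 235, 0, 5.16, 8.00, 1.23, 28.4, 152 and 38.1 TPM in DG, a difference of −2.50 ± 1.01 that was not called (adjusted p = 0.0686). It passed after quantile normalization, at −3.53 (adjusted p = 0.00493), and without the animal group of 1-yr-old males (adjusted p = 0.0109), whose CA1 library listed GRIK5 while its DG library did not, and limma-voom on whole tags called it lower as well (adjusted p = 0.00596). Its adjusted p ran between 0.00493 and 0.275 over the alternatives. The 3 CA1 and 7 DG libraries that list it overlap in range.

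Among the GABA-A subunits, GABRA5 (chromosome 7, 5783625 to 5861169, +), the alpha subunit of extrasynaptic receptors of hippocampal pyramidal cells, had 0, 21.0, 16.3, 16.9, 2.18, 0, 14.5 and 13.1 TPM in CA1 and 0 in all DG libraries (difference 2.77 ± 0.85, limma adjusted p = 0.0183). Of the 8 CA1 libraries 6 listed it, and it too entered the genes tested only with the help of CA1. Its span overlaps another annotated gene on the opposite strand by 68944 nt, and whether TCs were assigned by strand is not given in the sources used here, so its values are uncertain to that extent.

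**Figure D4:**
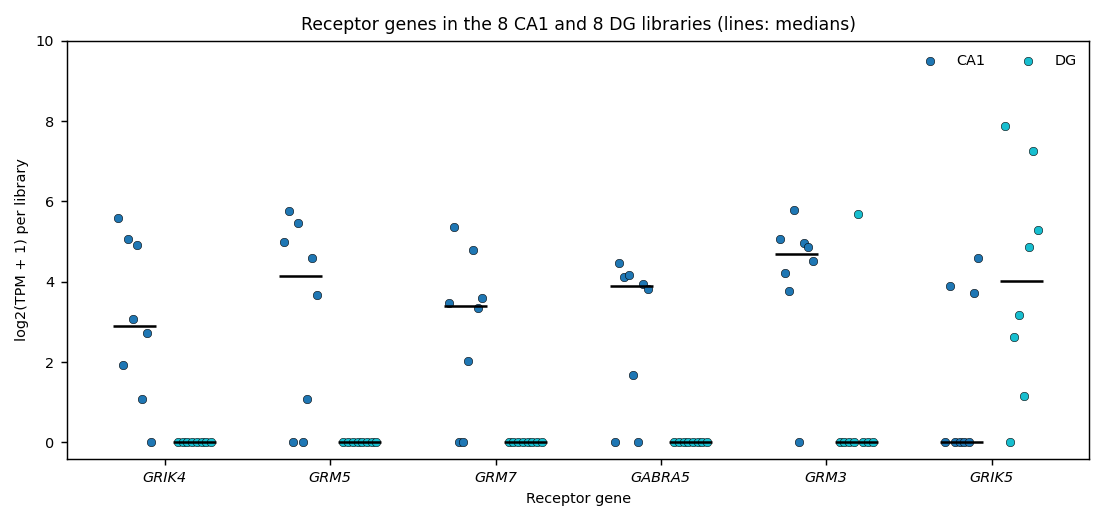
Level as log2(TPM + 1) (vertical axis) of 6 receptor genes in the 8 CA1 libraries (left of each pair) and the 8 DG libraries (right), 1 point per library, with a line at the median; points at 0 are libraries that list the gene at 0. GRIK4, GRM5, GRM7 and GABRA5 are at 0 in every DG library, and GRIK5 is listed in 3 CA1 and 7 DG libraries.

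GRIK4, GRM5 and GRM7 passed in all 8 fits that left out 1 animal group (GRIK4 at adjusted p of 0.000145 to 0.00683). GABRA5 was lost in 2 of them, and GRM3 in 5. The genes tested stayed the same in these fits. Passing them therefore gives no support to GRM5, GRM7 and GABRA5, which entered only with the help of CA1. These fits pool the spread as the main fit does, so the adjusted p-values of GRIK4 overstate the evidence there too. The count of members called was 4 without 1-yr-old females or 4-yr-old males and 3 without 20-yr-old females, and 4 without the CA1 library of 20-yr-old females alone (GABRA5, GRIK4, GRM5 and GRM7). DG libraries listed 1238 to 3898 genes and CA1 libraries 3805 to 8143, and only 1 DG library exceeded the lowest CA1 library. With the log2 number of genes as a covariate no member was called, GRIK4 having 2.46 (adjusted p = 0.054, within 0.000145 to 0.304 over its alternatives), and after quantile normalization none of the 7 was. The number of genes listed and the 2 regions can hardly be told apart here. Some cell type markers differed too, and their part was not tested. The summed TPM of the 7 CA1 pyramidal cell markers (5 with a TC) was 96.6 to 645 in CA1 (median 358) and 0 to 230 in DG (median 4.71). That of the 8 dentate granule cell markers (6 with a TC) was 30.7 to 145 in CA1 (median 68.8) and 25.6 to 650 in DG (median 491). That of the oligodendrocyte and myelin markers was 4997 to 8204 in CA1, against 736 to 4047 in DG. Other lists overlapped between CA1 and DG: astrocytes (409 to 1266, against 328 to 1557), GABAergic interneurons (229 to 1166, against 147 to 632) and microglia (6.91 to 336, against 7.67 to 367).

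**Figure D5:**
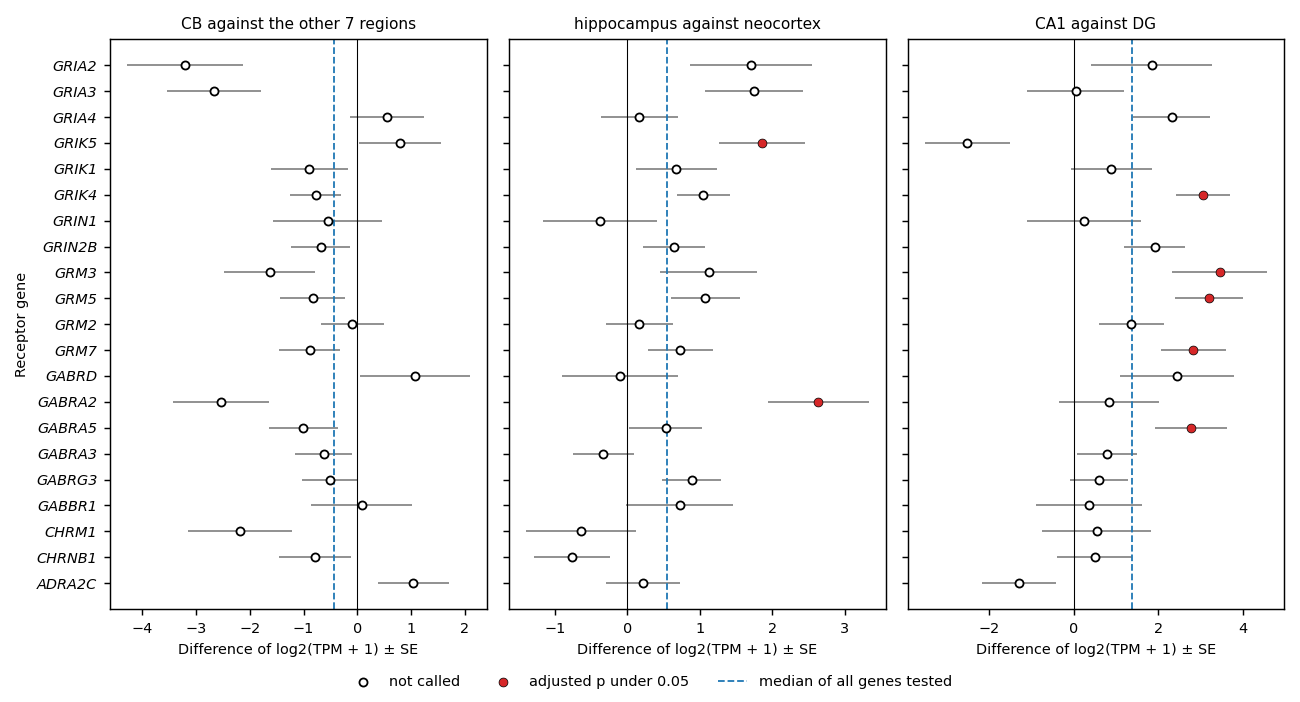
Log2 difference (horizontal axis, on log2(TPM + 1), with bars of 1 SE) of 21 receptor genes for CB minus the remaining regions, hippocampus minus neocortex, and CA1 minus DG, 1 panel per comparison; filled points passed at an adjusted p under 0.05 and the dashed line is the median of all 6106 genes. The plotted genes that passed number 0, 2 and 5, all on the higher side.

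Animals of 10 and 20 yr were compared with those of 1 and 4 yr after averaging each of the 8 animal groups over its regions. None of the 6106 genes was called (0%), and no member. At an unadjusted p under 0.05 in limma there were 549 genes (8.99%), of which 505 (8.27%) were lower in the older animals, and 2 of 24 members, both lower. A fit with limma-voom on whole tags called 8 genes, all higher in the older animals, and no member, while a random effect of the animal group called 15 genes, 14 of them lower, and no member. GRIA2 had a log2 difference of −1.60 ± 0.53 (limma adjusted p = 0.397), and was listed in 12 of 32 libraries of the older animals, against 22 of 32 of the younger. By age it was listed in 12, 10, 8 and 4 of 16 libraries at 1, 4, 10 and 20 yr. The mean TPM of GRIA2 over regions was 131, 30.6, 3.99 and 59.9 in the 4 older animal groups, against 29.8, 134, 50.5 and 62.0 in the 4 younger, so these means overlap. GABRA2 had −1.32 ± 0.47 (limma adjusted p = 0.449), with 14 of 32 libraries against 21 of 32. Its group means were 17.5, 24.5, 11.4 and 23.4 TPM in older animals, against 46.5, 50.6, 52.4 and 15.0 TPM in younger ones. The median member was at −0.44 and the median gene at −0.30. Libraries of older animals listed a median of 2413.5 genes and 6 members, against 2856.5 genes and 10 members, so the number of genes listed moved with age in the same direction. With its log2 as a covariate the median gene was at 0.01 and 0 members were left at an unadjusted p under 0.05, with GRIA2 at −1.46 (adjusted p = 0.862, within 0.299 to 0.881 over its alternatives) and GABRA2 at −0.73 (adjusted p = 0.928, within 0.243 to 0.928).

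Males were compared with females in the same model. No gene was called (0%), 321 genes (5.26%) had an unadjusted p under 0.05 in limma, 4.42% being higher in males, and limma-voom called none. Among the members GRIA2 was the one at that level, at 1.28 ± 0.53 (limma adjusted p = 0.924), listed in 20 of 32 male and 14 of 32 female libraries. Libraries of males listed a median of 2752 genes and 8.5 members, against 2413.5 genes and 7 members in females.

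Proteins that anchor, escort or act below the receptors were examined from lists chosen by function, in the main model only. Over all genes, calls between CA1 and DG fell from 1182 to 187 with the log2 number of genes as a covariate. Whether the genes of these lists kept their calls there, or passed the filter only with the help of CA1, was not examined. Of 45 scaffold and auxiliary proteins 22 were tested, and in CA1 against DG 7 were higher (31.8%, against 18.5% of all genes) and 0 lower (median 2.00, against 1.37 for all genes). They included CNIH2, an AMPA receptor auxiliary protein (2.90, limma adjusted p = 0.00214), HOMER2 and HOMER1, scaffolds of group I metabotropic glutamate receptors (2.76 and 2.79, adjusted p = 0.0168 and 0.0374), and CACNG3, a transmembrane AMPA receptor regulatory protein (3.92, adjusted p = 0.035). In the hippocampus against the neocortex 3 were higher (13.6%, against 7.98% of all genes), namely GPHN, the gephyrin scaffold of GABA-A and glycine receptors (2.31, adjusted p = 0.000556), CNIH2 (1.83, adjusted p = 0.00215) and HOMER3 (2.10, adjusted p = 0.0309), with a median equal to that of all genes, 0.55. In CB against the other regions HOMER3 was higher (5.17, adjusted p = 1.88e-05) and CACNG3 lower (−4.46, adjusted p = 0.00587).

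Of 36 G proteins and early signalling genes 21 were tested, and 6 were higher in CA1 than in DG (28.6%, against 18.5% of all genes), with PLCB1, a Gq effector (5.19, limma adjusted p = 9.69e-05), RGS14, a regulator of G protein signalling (3.97, adjusted p = 0.00223), and GNAI1 and GNB5, a Gi alpha and a G beta subunit (3.18 and 4.72, adjusted p = 0.00389 and 0.0169). The list's median was 1.12, against 1.37 for all genes. In the hippocampus against the neocortex 2 were higher, RGS14 among them (2.67, adjusted p = 0.00117), and RGS4 was lower (−2.04, adjusted p = 0.0499), and in CB none passed. Of 22 genes of glutamate and GABA synthesis and transport 11 were tested. SLC1A6, the glutamate transporter of Purkinje cells, was higher in CB (2.56, adjusted p = 0.00746), SLC1A2, the astrocyte glutamate transporter, was higher in CA1 than in DG (3.12, adjusted p = 0.00076), and none passed between the hippocampus and the neocortex. Of 19 genes of monoamine and acetylcholine synthesis, transport and breakdown 5 had a TC and none passed the filter. No gene of these lists was called between ages or sexes, where no gene of the table was.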

How the data were processed

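CAGE-seq libraries of 64 rhesus macaque brain samples were analysed. The authors deposited RPM, called TPM here: the tags of a TC per 1000000 tags of its library. The authors filtered reads with FASTX-Toolkit 0.0.13, aligned them with TopHat2 to MMUL 1.0 with up to 2 mismatches, kept unique reads, and joined 5′ ends of at least 0.5 TPM within 20 nt. Tags per library were estimated from the step between low values (at most 6 TPM), of which 99.9 to 100% came out whole within 0.1 tag. PCR duplicates cannot be removed from these values.

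TPM was summed per gene. The 6106 genes that reached 1 TPM in 8 or more libraries entered limma 3.58.1 in R 4.3.3 on the log2(TPM + 1) scale (tables read with the data.table package, version 1.17.8), two-sided, with Benjamini-Hochberg adjustment over all of them. The log scale with this pseudocount understates changes of low genes. Regions were compared in 1 model of all libraries with region and animal group as terms, the animal group being a block because the supplemental methods have all regions of each specimen. Same-numbered libraries deviated together only weakly (mean correlation of deviations 0.011, against −0.0016 for other pairs, positive in 24 of 28 pairs of regions). Ages and sexes were compared on the 8 animal-group means, with age (4 levels) and sex as terms. The main fits were also run on simulated normal log2 values with the mean and SD of each gene. These values had no excess of zeros and no effect of the animal group. They do not show how the fits act on genes mostly listed at 0. Other work used pandas 2.3.3, NumPy 2.4.6, SciPy 1.17.1 and Matplotlib 3.10.9 under Python 3.11.15.

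Members named are those called in a comparison, the 12 with the highest mean TPM, the highest of each class and those in at least 32 libraries; GRM4, GABRA6, GRIA4 and GABRG3 are named besides, after their values were seen. From other lists up to 4 called genes with the smallest p are named. The members and lists were chosen with earlier results of these data known. Some of these genes are neither named nor plotted and are not reported here, although counts of members and calls include them. No sequences are shown, since no genome was used.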

Additional observations from a re-analysis of the deposited data

Results flagged for a closer look

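In 4 of 53 groups of 8 libraries (tested members that are reported, in a region where at least 4 libraries list them), 1 library stood apart from the others of its region by Dixon's test on log2(TPM + 1). About 2.65 of 53 would do so by chance if values were normal. Groups with values at 0 are not, so the number to be had by chance is not known here. GRIA2 was listed at 0 in the CA1 library of 10-yr-old females, against 24.1 to 410 TPM in the other CA1 libraries. GRM3 was listed at 0 in the same library, against 12.6 to 54.1 TPM. That library listed 3805 genes, the fewest of the CA1 libraries. CHRM1 was at 331 TPM (330.56) in the library of PFC from 20-yr-old females, against 0 to 8.69 TPM in the other PFC libraries. That PFC library held the fewest tags of all libraries (1.51e+06). GRIA4, an AMPA receptor subunit, was at 116 TPM (116.21) in the CB library of 10-yr-old males, against 0 to 6.47 TPM in the other CB libraries. The cause was not tested for any of them.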

How the results depend on the processing

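The number of members called depended on the processing in all 3 regional comparisons, while between ages and between sexes it was 0 under every alternative run. In CB, where 0 were called, there were 3 without a filter, all higher, and 3 with limma-voom on whole tags, all lower (GABRA2, GRIA2 and GRIA3). Between the hippocampus and the neocortex, where 3 were called, there were 5 without a filter, 1 after quantile normalization, 1 from TCs within 500 nt of the start (5 members tested), 0 with the log2 number of genes as a covariate, 1 without the CA1 library of 20-yr-old females, 0 without the PCC libraries and 5 with limma-voom. Between CA1 and DG, where 7 were called, there were 11 without a filter, 2 with the filter raised to 16 libraries (11 members tested), 1 after quantile normalization, which was GRIK5 and lower, 2 from TCs near the start, 0 with the covariate and 4 without the CA1 library of 20-yr-old females. With limma-voom 8 were called between CA1 and DG, 7 higher and 1, GRIK5, lower. The causes of these changes were not tested, beyond the fewer genes that the stricter filter and the TCs near the start leave. Leaving out each animal group in turn gave 0 to 1 members in CB, 0 to 5 in the hippocampus and 3 to 7 in CA1. Over all genes this range was 91 to 137 in CB (136 with all groups), 243 to 514 (500) in the hippocampus, 747 to 1307 (1182) in CA1, 0 to 1 for age and 0 for sex.

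Without the replicate block 0, 3 and 7 members were called, so the pairing by animal group changed no call of a member, and 119, 508 and 1146 genes. Over all genes quantile normalization gave 200, 148 and 276 calls, of which 53.5, 85.8 and 73.9% were higher, and the covariate 153, 123 and 187, of which 66.0, 78.0 and 73.3% were higher, against 39.7, 97.4 and 95.6% with the values as deposited. No filter gave 141, 755 and 1838 calls, and limma-voom 339, 958 and 1568. TCs near the start gave 45, 380 and 817, the stricter filter 116, 197 and 556, and leaving out PCC 186, 221 and 1057. The median of all genes was −0.43, 0.55 and 1.37, and moved to −0.18, 0.03 and 0.12 with quantile normalization and −0.11, 0.04 and 0.31 with the covariate. For age, a random effect of the animal group called 15 genes, 14 of them lower, and limma-voom 8, all higher. GABRD in CB ranged from −0.31 to 1.84 (1.07 with all groups) when an animal group was left out, and was at −0.31 without the animal group, or the CB library alone, of 10-yr-old females. The fits with limma-voom and those without the CA1 library of 20-yr-old females, the CB library of 10-yr-old females or the PCC libraries were added after seeing the data, and a count model on whole tags was not run. The listing threshold of 1 TPM, or 2 to 7 tags, limits what can be said of genes listed at 0.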
